A study of Mus musculus with 5 samples.

Results

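The genes described here encode the first steps of signalling from the T cell receptor (TCR). They are the kinases Zap70, Lck and Fyn, and the kinase Csk, which restrains Lck and Fyn. The others are the adaptors Lat and Lcp2 and the effectors Plcg1, Vav1 and Themis. Together these are 9 of 22372 protein-coding genes. The rule that picks them is their place in the pathway and uses no measured value, though earlier results of these data were known when it was made. For each gene, the deposited Cxxc1 and H3K4me3 windows were taken within 1 kb of every transcription start site (TSS) of its protein-coding transcripts, and in the gene body plus 10 kb upstream. TSSs of a gene within 1 kb of each other were counted as 1 promoter, which gave 16 promoters, with 2 or more in 5 of the genes.

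ChIP-seq was performed on CD4+CD8+ double-positive (DP) thymocytes. WT animals carried the floxed Cxxc1 allele without Cre, and Cxxc1-deficient animals were Cxxc1 fl/fl with hCD2-Cre, a transgene active in lymphoid cells, which removes exons 4 and 5. The methods give 3 to 4 weeks as the usual age of the mice. The sample titles call the deficient cells knockout while their genotype label gives Cxxc1+/-, and this difference could not be settled from the labels. The study's supplement gives 2979 peaks for its H3K4me3 ChIP of Cxxc1 fl/fl hCD2-Cre cells, the same number as in the deficient list used here. Of the 5 samples, 3 lists were used, each from 1 library: 1 for Cxxc1 and 1 for H3K4me3 in each genotype. The Cxxc1 list carries no genotype and is taken as WT from the methods. Its 4352 peaks match the number that the supplement gives for the Cxxc1 ChIP of Cxxc1 fl/fl cells. The values of the input and of the Cxxc1 ChIP of deficient cells were not used here. Per the methods both served as controls in calling the Cxxc1 list, so they bear on which of its windows are listed. DP thymocytes of the deficient mice are strongly reduced in number, and how many mice gave each library is not given in the sources used here.

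In a DP thymocyte, Lck bound to the CD4 and CD8 coreceptors phosphorylates the TCR complex and then Zap70, which docks on it. Zap70 phosphorylates the adaptors Lat and Lcp2 (SLP-76), and these assemble the complex in which Plcg1 and Vav1 are activated. The strength of this signal decides positive and negative selection. H3K4me3 is a histone mark of active promoters, and Cxxc1 is the CpG-binding subunit of the Setd1 complexes that deposit it.

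Values are RPM, tags scaled to the size of the library, in 200-bp windows, and only windows inside called regions are listed. Where no window is listed the signal is unknown, which is not the same as 0. The lowest listed windows held 2 tags, or 0.2 RPM, and 1 tag was worth 0.1083 to 0.11 RPM for Cxxc1 and 0.1056 to 0.1062 RPM for both H3K4me3 lists, so the Cxxc1 library held about 9090000 to 9230000 tags and each H3K4me3 library 9410000 to 9470000. At this near-equal depth 14237 WT and 2979 Cxxc1-deficient H3K4me3 peaks were listed. RPM sums add window values rounded to 1 decimal, so most run below the tag number times the RPM of 1 tag. With 1 library per genotype there was no replicate and no test between genotypes, and the 95% exact Poisson intervals given for tag numbers cover counting error only. RPM and tags are also relative to each library. The study measured less total H3K4me3 in Cxxc1-deficient DP thymocytes by ELISA. Equal values in the 2 genotypes therefore need not mean equal amounts of the mark. Promoters of DP thymocyte markers were listed in WT cells for 3 of 8 genes (Cd8a, Cd8b1 and Cd3e), summing to 7.5 RPM. In Cxxc1-deficient cells they were listed for 3 of 8 (Cd8a, Cd3e and Rag1), summing to 4.1 RPM. Over all protein-coding genes the shares were 31.1% and 5.86%, so the WT count is near the general share. Cd4, Rag2, Dntt and Ptcra had no promoter window in either genotype. Of 12 markers of B, myeloid, NK, erythroid and thymic epithelial cells, 0 had a listed promoter window in either genotype. With so few markers, these counts do not establish which cells were present.

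The sequences below are the 250 bases before the first TSS of 6 promoters that stand for the states found, in the direction of transcription. They come from the mm9 genome (NCBIM37), and capitals mark CpG dinucleotides, which the CXXC domain of Cxxc1 recognises when unmethylated. Zap70 promoter 1 kept listed H3K4me3 in both genotypes, both Lck promoters were listed in WT cells only, Lcp2 was listed in Cxxc1-deficient cells only, Themis was listed in no library, and Csk is the listed promoter with the lowest WT value within 1 kb.
Zap70 promoter 1 (chr1:36818445-36818694, + strand): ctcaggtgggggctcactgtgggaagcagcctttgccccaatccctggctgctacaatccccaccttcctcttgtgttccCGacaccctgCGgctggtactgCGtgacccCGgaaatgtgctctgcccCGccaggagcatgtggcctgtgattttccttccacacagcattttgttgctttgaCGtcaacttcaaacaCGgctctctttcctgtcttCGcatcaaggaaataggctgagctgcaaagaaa
Lck promoter 1, distal (chr4:129250886-129251135, - strand): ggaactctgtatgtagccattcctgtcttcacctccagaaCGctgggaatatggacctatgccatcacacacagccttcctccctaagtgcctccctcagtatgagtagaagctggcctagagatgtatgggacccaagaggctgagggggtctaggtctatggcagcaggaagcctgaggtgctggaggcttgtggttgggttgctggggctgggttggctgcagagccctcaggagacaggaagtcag
Lck promoter 2, proximal (chr4:129235636-129235885, - strand): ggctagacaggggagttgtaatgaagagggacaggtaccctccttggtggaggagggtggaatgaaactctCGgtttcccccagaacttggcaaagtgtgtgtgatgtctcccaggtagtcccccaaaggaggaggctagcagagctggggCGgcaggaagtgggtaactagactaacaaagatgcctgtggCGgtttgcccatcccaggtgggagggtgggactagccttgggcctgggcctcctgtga
Lcp2 promoter (chr11:33946670-33946919, + strand): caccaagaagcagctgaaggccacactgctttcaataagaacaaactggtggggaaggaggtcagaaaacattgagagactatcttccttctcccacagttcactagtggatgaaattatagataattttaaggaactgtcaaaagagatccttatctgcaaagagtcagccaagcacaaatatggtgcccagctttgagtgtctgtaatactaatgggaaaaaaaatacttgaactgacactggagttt
Themis promoter (chr10:28387916-28388165, + strand): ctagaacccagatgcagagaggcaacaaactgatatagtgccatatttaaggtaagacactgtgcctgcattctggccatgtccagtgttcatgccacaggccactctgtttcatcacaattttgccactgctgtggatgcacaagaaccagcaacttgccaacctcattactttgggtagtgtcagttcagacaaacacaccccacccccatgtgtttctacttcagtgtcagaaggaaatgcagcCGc
Csk promoter (chr9:57493461-57493710, - strand): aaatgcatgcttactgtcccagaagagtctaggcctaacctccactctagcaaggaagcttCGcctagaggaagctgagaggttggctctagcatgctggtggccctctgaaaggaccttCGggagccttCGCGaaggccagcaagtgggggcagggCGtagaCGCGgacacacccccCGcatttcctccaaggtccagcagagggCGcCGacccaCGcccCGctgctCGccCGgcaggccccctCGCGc
The Lcp2 stretch held 0 CpG, those of Themis and the distal Lck promoter 1 each, the proximal Lck promoter 3, Zap70 8 and Csk 16.

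At promoters, WT H3K4me3 was listed for 7 of the 9 genes, all but Lcp2 and Themis, against 31.1% of all protein-coding genes. Cxxc1-deficient H3K4me3 was listed for 2 of the 9, Zap70 and Lcp2, against 5.86% of all genes. Only Zap70 was listed in both genotypes, as were 3.99% of all genes. Among the 7 genes with WT promoter H3K4me3, 1 was also listed in Cxxc1-deficient cells, and over all such genes the share was 12.8%. The loss from the list at the other 6 was therefore near what was seen for promoters in general. Summed over the 16 promoters, WT cells held 22.1 RPM (221 tags in 63 windows) and Cxxc1-deficient cells 2.1 RPM (21 tags in 7 windows).

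**Figure D1:**
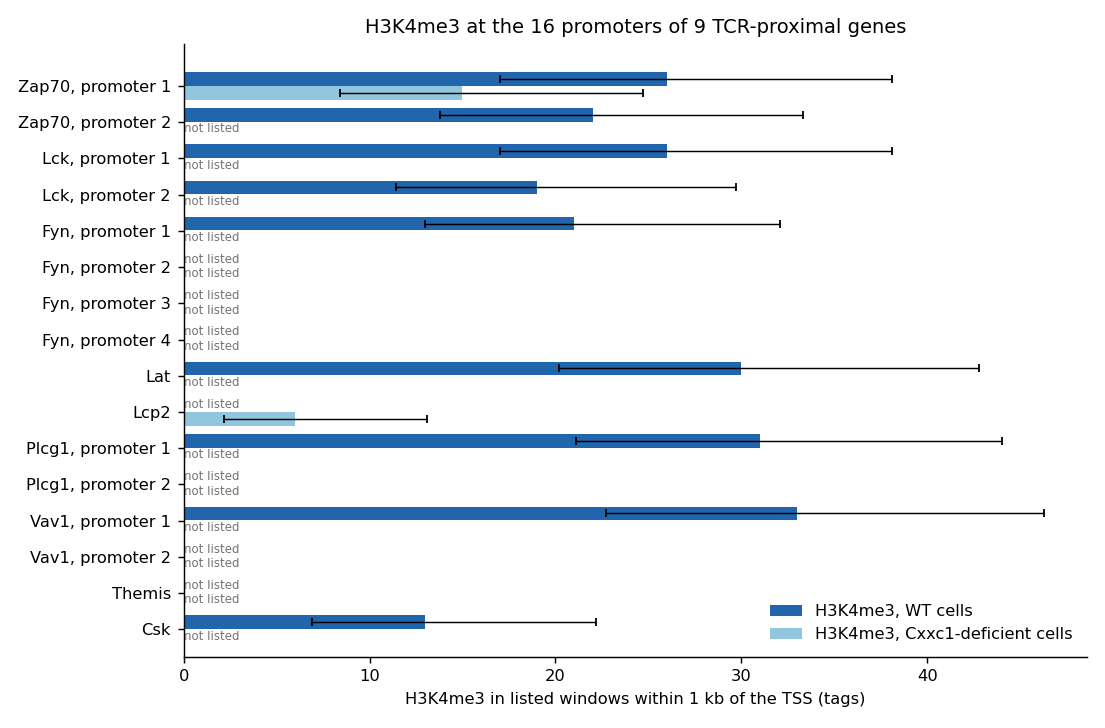
H3K4me3 tags in listed windows within 1 kb of the TSS (x axis, tags) at each of the 16 promoters (y axis), for WT and Cxxc1-deficient cells; bars are tag numbers of 1 library and lines are 95% exact Poisson intervals. WT bars reach 13 to 33 tags at 9 promoters, and Cxxc1-deficient bars stand only at Zap70 promoter 1 (15 tags) and Lcp2 (6 tags).

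Zap70 (ENSMUSG00000026117.7, chr1:36818695-36839663, + strand) encodes the Syk-family kinase that carries the signal from the receptor to Lat. At its first promoter, whose TSS is at 36818695, WT cells held 2.6 RPM (26 tags, 17.0 to 38.1) in 9 windows and Cxxc1-deficient cells 1.5 RPM (15 tags, 8.4 to 24.7) in 5 windows. The WT sum was the higher and the counting intervals overlap, but the WT sum covers more listed windows, so the same stretch is not compared. At the second promoter, at 36835847 inside the gene, WT cells held 2.2 RPM (22 tags, 13.8 to 33.3) and no Cxxc1-deficient window was listed.

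The WT peak at the first Zap70 promoter, chr1:36817201-36820600, held 4.1 RPM (41 tags, 29.4 to 55.6) and was stronger than 91.0% of WT peaks. The Cxxc1-deficient peak, chr1:36818601-36820400, held 2.3 RPM (23 tags, 14.6 to 34.5) and lay within it. In the 7 windows listed in both, WT cells held 22 tags and Cxxc1-deficient cells 21, with WT higher in 2, equal in 3 and lower in 2 windows. Only windows that passed calling in both libraries enter this comparison, which limits how far they can differ.

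Within 1 kb of the TSSs of both Zap70 promoters together, the WT windows held 2.3 RPM on the upstream side and 2.5 RPM downstream by window midpoint, so that 47.9% lay upstream. The Cxxc1-deficient windows, all at the first promoter, lay downstream of its TSS by midpoint, 1.5 RPM in 5 windows. The nearest of them spans the TSS, with its midpoint at 0.01 kb. WT windows at the first promoter had midpoints from -0.99 to 1.01 kb, so they lay on both sides there too. Over the 893 genes listed in both genotypes, 47.8% of the WT and 49.6% of the Cxxc1-deficient RPM lay upstream. Cxxc1-deficient windows downstream only, with WT windows on the upstream side as well, were found in 104 of these genes (11.6%), and the reverse in 53 (5.94%).

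Lck (ENSMUSG00000000409.8, chr4:129225588-129250885, - strand), the Src-family kinase that starts the cascade, is read from a distal and a proximal promoter. The distal promoter, at 129250885, held 2.6 RPM in WT cells (26 tags, 17.0 to 38.1). The proximal promoter, the one known for its use in immature thymocytes, held 1.9 RPM in WT cells (19 tags, 11.4 to 29.7). No Cxxc1-deficient window was listed at either, in the gene body or in the 10 kb upstream. A further WT peak of 1.9 RPM lay 3.82 kb upstream at chr4:129254001-129255400, overlapping Fam167b, whose TSS is the nearer at 1.09 kb, and which of the genes it belongs to was not tested. The highest window of all 3 WT peaks, 1.0 RPM, was in that one.

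**Figure D2:**
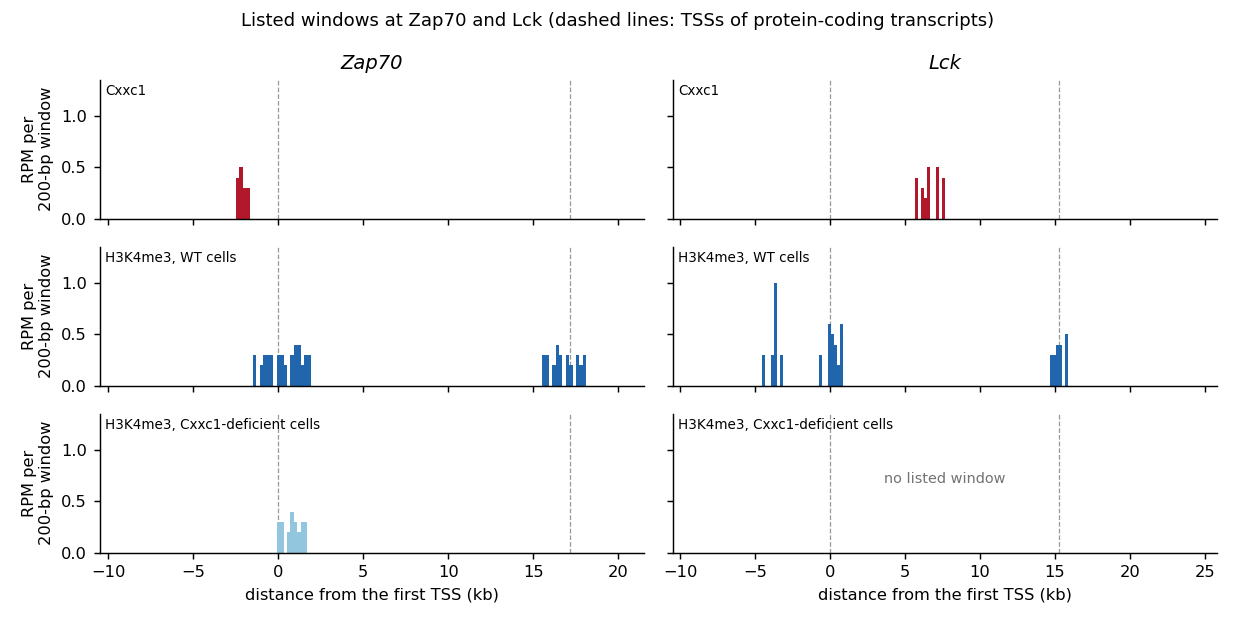
RPM per 200-bp window (y axis) against distance from the first TSS in kb, in the direction of transcription (x axis), at Zap70 and Lck for Cxxc1 and for H3K4me3 in WT and Cxxc1-deficient cells; dashed lines mark promoters. Cxxc1 windows of 0.2 to 0.5 RPM stand away from the H3K4me3 windows, and Cxxc1-deficient H3K4me3 is listed only at the first Zap70 TSS and downstream of it.

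The study chose Zap70 and Lck for follow-up with these libraries among its data, so their pattern is a description. On independently sorted samples the study reports less H3K4me3, Cxxc1 and Setd1 at both loci in Cxxc1-deficient cells, measured by ChIP with PCR. It also reports lower RNA of both genes, with less Zap70 protein but unchanged Lck protein. Zap70 was listed at its promoter in both genotypes with Cxxc1 in its region, a state shared by 0.684% of all genes. Lck was listed in WT cells only, with Cxxc1 in its region, a state of 4.17% of all genes. The other 7 genes fell into other states. Fyn, Lat, Plcg1, Vav1 and Csk had a WT promoter without Cxxc1 in the region, as did 23.0% of all genes. Lcp2 had a Cxxc1-deficient promoter only, with Cxxc1 in the region, as did 0.277%. Themis had neither promoter H3K4me3 nor Cxxc1, as did 61.0%.

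The genes with values most like Zap70, among the 152 others in its state, were Tef, Cep250 and Aak1. Likeness was the largest absolute log2 ratio over WT promoter, Cxxc1-deficient promoter and Cxxc1 region RPM, which came to 0.19, 0.26 and 0.42. Tef, for example, held 4.2 RPM, 1.6 RPM and 1.6 RPM. Most like Lck, among 932 others and with no Cxxc1-deficient value to compare, were Sbno2, Pth1r and Slc43a1, at 0.03, 0.06 and 0.06.

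By the sum over all promoters of a gene, Zap70 (4.8 RPM) and Lck (4.5 RPM) were the highest of the 7 WT-listed genes, above 96.9% and 95.4% of all genes with WT promoter H3K4me3. Both sums add 2 promoters, and their rank depends on the settings. Within 500 bp, Zap70 held 2.5 RPM, below Lck (3.6), Plcg1 (2.8) and Vav1 (2.6). With only peaks at or above the median of their list, Lck held 2.6 RPM, below Lat (3.0), Plcg1 (3.1) and Vav1 (3.3). Promoter by promoter, Zap70 and Lck at 1.9 to 2.6 RPM lay below Lat, Plcg1 and Vav1 at 3.0 to 3.3 RPM, with counting intervals that overlap. The median over the 7 genes was 3.1 RPM, and over all genes with WT promoter H3K4me3 it was 2.4 RPM (quartiles 1.9 and 3.0).

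**Figure D3:**
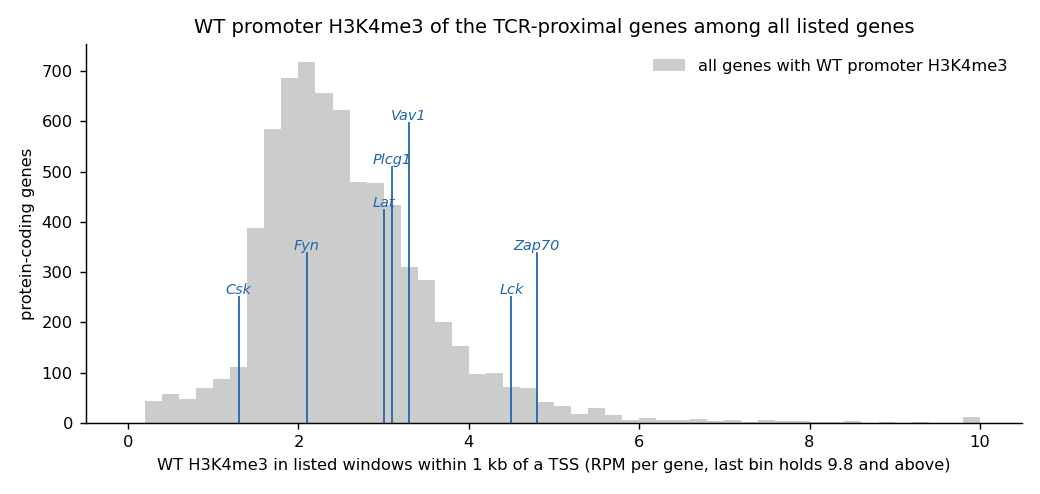
Number of protein-coding genes (y axis) by WT H3K4me3 in listed windows within 1 kb of any TSS (x axis, RPM per gene), over the 6962 genes with such a window; blue lines mark 7 of the 9 TCR-proximal genes. Csk lies at the low end at 1.3 RPM, and Lck and Zap70 lie in the upper tail at 4.5 and 4.8 RPM, each as the sum of 2 promoters.

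Fyn (ENSMUSG00000019843.8, chr10:39088661-39285187, + strand), the second Src-family kinase at the TCR, has 4 promoters. The first, with TSSs from 39088661 to 39089609, held 2.1 RPM in WT cells (21 tags, 13.0 to 32.1), and 1 of its 5 windows held 0.8 RPM. The other 3 promoters had no listed window in any library. Away from promoters, WT peaks lay in introns at chr10:39190001-39192400 (3.1 RPM), chr10:39225601-39228000 (3.7 RPM) and chr10:39253801-39255400 (1.8 RPM).

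Fyn had no Cxxc1-deficient promoter window but kept intronic H3K4me3. A Cxxc1-deficient peak of 2.0 RPM (20 tags, 12.2 to 30.9), chr10:39226201-39227200, lay inside the WT peak of 3.7 RPM (37 tags, 26.1 to 51.0), which was centred 4.74 kb upstream of the last Fyn promoter. Of the 5 windows listed in both, WT was higher in 0, equal in 3 and lower in 2. A second Cxxc1-deficient peak, 1.5 RPM at chr10:39188001-39189000, overlapped no WT peak, the nearest WT peak of Fyn starting about 1 kb away.

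Csk (ENSMUSG00000032312.6, chr9:57474454-57493460, - strand), which phosphorylates the inhibitory tail tyrosine of Lck and Fyn, had the lowest WT promoter value of the 7 listed genes, 1.3 RPM (13 tags, 6.92 to 22.2) in 4 windows. Only 5.21% of genes with WT promoter H3K4me3 had a lower one. Within 2 kb, Csk held 2.5 RPM, above Fyn (2.1), and with only peaks at or above the median of their list Fyn had no listed promoter window, so the order of Csk and Fyn rests on these settings. All 4 windows lay downstream of the TSS, as did all WT windows in 673 of the 6962 genes (9.67%). The peak they belong to, chr9:57491001-57493400, reached further into the gene and held 3.3 RPM (33 tags, 22.7 to 46.3).

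Over its gene body and 10 kb upstream, Csk carried the most WT H3K4me3 of the 9 genes, 13.9 RPM in 5 peaks. Upstream peaks lay at chr9:57498201-57499800 (3.3 RPM) and chr9:57500401-57502200 (2.3 RPM), and intronic ones at chr9:57485201-57486200 (1.7 RPM) and chr9:57477001-57478800 (3.3 RPM). None of these had a Cxxc1-deficient counterpart in the list.

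Lat (ENSMUSG00000030742.6, chr7:133507346-133513057, - strand), the membrane adaptor that Zap70 phosphorylates, held 3.0 RPM at its promoter in WT cells (30 tags, 20.2 to 42.8), with 60.0% upstream of the TSS. Its WT peak, chr7:133511401-133514200, held 3.9 RPM and reached into Spns1, the gene upstream. No Cxxc1-deficient or Cxxc1 window was listed in the Lat region.

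Lcp2 (ENSMUSG00000002699.5, chr11:33946920-33992295, + strand) encodes SLP-76, the cytosolic adaptor that works with Lat. It had no WT window at its promoter and 0.6 RPM in Cxxc1-deficient cells (6 tags, 2.2 to 13.1) in 2 windows. These are the edge of a Cxxc1-deficient peak, chr11:33947801-33949000, of 1.6 RPM (16 tags, 9.15 to 26.0), centred 1.23 kb downstream of the nearest TSS and weaker than most of its list, with 12.3% of peaks weaker. A Cxxc1-deficient promoter without a WT one was found in 1.87% of all genes.

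Deeper in Lcp2, both genotypes had a peak around the start of a noncoding Lcp2 transcript. WT cells held 2.2 RPM (22 tags, 13.8 to 33.3) at chr11:33977801-33979000 and Cxxc1-deficient cells 1.9 RPM (19 tags, 11.4 to 29.7) at chr11:33977601-33978800, about 31.23 and 31.03 kb from the nearest coding TSS. In the 5 windows listed in both, WT was higher in 1, equal in 3 and lower in 1. The gene 4930469K13Rik also overlaps every listed peak of Lcp2, and ChIP-seq does not tell which of these genes a peak belongs to.

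**Figure D4:**
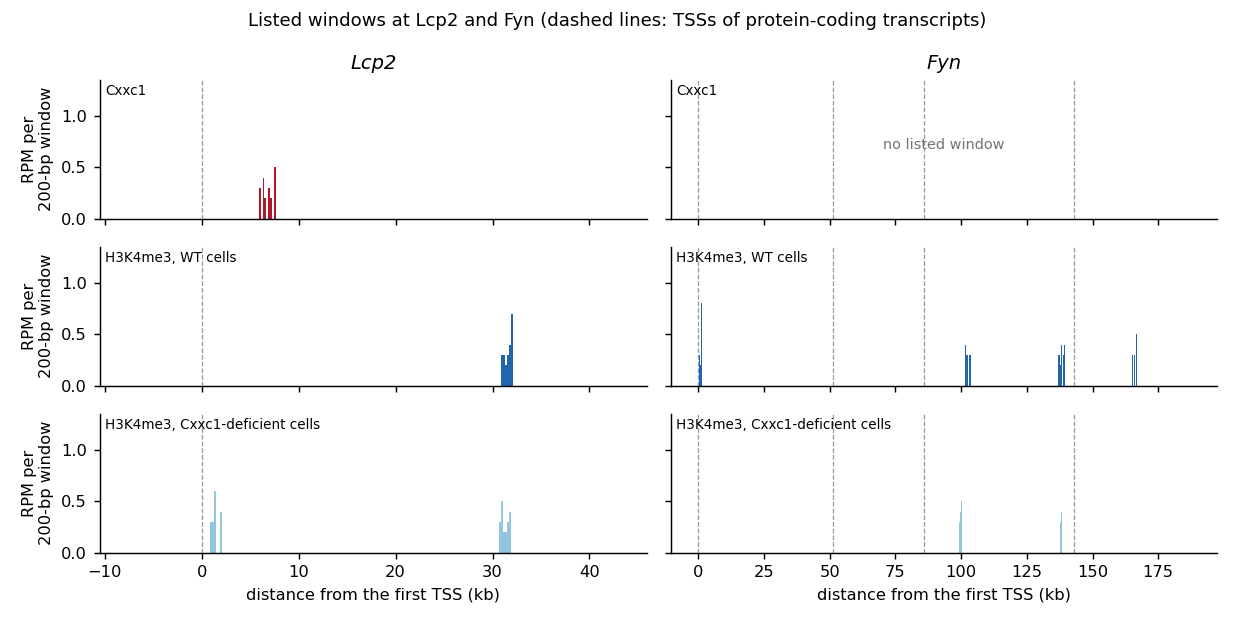
RPM per 200-bp window (y axis) against distance from the first TSS in kb (x axis) at Lcp2 and Fyn for Cxxc1 and for H3K4me3 in WT and Cxxc1-deficient cells; dashed lines mark promoters of protein-coding transcripts. Both genes show H3K4me3 of both genotypes at an internal site, near 31 kb in Lcp2 and in an intron of Fyn, and Lcp2 shows Cxxc1-deficient but no WT windows just after its TSS.

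Plcg1 (ENSMUSG00000016933.11, chr2:160557036-160601496, + strand), the phospholipase that releases calcium and diacylglycerol signals, held 3.1 RPM in WT cells at its first promoter (31 tags, 21.1 to 44.0) and none at its second. Intronic WT peaks of 2.4 RPM and 2.1 RPM lay at chr2:160567401-160568800 and chr2:160571801-160573600, the latter overlapping Zhx3. Vav1 (ENSMUSG00000034116.9, chr17:57418523-57468659, + strand), a guanine nucleotide exchange factor, held the highest single WT promoter value, 3.3 RPM (33 tags, 22.7 to 46.3). It was flanked by WT peaks of 3.0 RPM upstream at chr17:57414601-57416400 and 2.3 RPM in an intron at chr17:57422001-57423600. Neither gene had a listed Cxxc1-deficient or Cxxc1 window.

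Themis (ENSMUSG00000049109.8, chr10:28388166-28603624, + strand), needed for positive selection, had no listed window in any library over its 215 kb or the 10 kb upstream. Cd4 and Rag2, also active in DP thymocytes, had none at their promoters either, so a missing entry in these lists does not show an inactive promoter.

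Over gene bodies plus 10 kb upstream, WT H3K4me3 was listed for 8 of the 9 genes (against 41.5% of all genes) and Cxxc1-deficient H3K4me3 for 3, namely Zap70, Fyn and Lcp2 (against 11.0% of all genes). These shares depend on gene length, and the members had a median span of 44.5 kb against 15.4 kb over all protein-coding genes. WT cells had 22 peaks in the member regions, 9 at promoters and 13 away from them, of 1.7 to 4.1 RPM (17 to 41 tags). Cxxc1-deficient cells had 5 peaks of 1.5 to 2.3 RPM, 2 at promoters and 3 away. The sums were 60.2 RPM for WT and 9.3 RPM for deficient cells, over 166 and 27 windows. In the 17 windows listed in both genotypes, WT held 55 and Cxxc1-deficient cells 57 tags, with WT higher in 3, equal in 9 and lower in 5. These windows are a selected set, since each had to pass calling in both libraries, and tag numbers are relative to each library.

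Cxxc1 was listed in the region of 3 of the 9 genes, Zap70, Lck and Lcp2, against 11.1% of all genes and 12.3% of the genes with a span between 5.71 and 215 kb, the members' range. That range holds 15138 of the 22372 genes, so it matches length only loosely. Within 1 kb of a TSS, 0 of the 9 genes had a Cxxc1 window, against 1.96% of all genes. The Zap70 peak, chr1:36816201-36817000, held 1.5 RPM (15 tags, 8.4 to 24.7) and was centred 2.09 kb upstream of the first TSS. The Lck peak, chr4:129243201-129245200, held 2.3 RPM (23 tags, 14.6 to 34.5) in an intron between its promoters. The Lcp2 peak, chr11:33952801-33954600, held 1.9 RPM (19 tags, 11.4 to 29.7) in an intron 6.53 kb downstream of the TSS. The Lck peak was stronger than 82.5% of the Cxxc1 list, the Lcp2 peak than 60.0% and the Zap70 peak than 14.7%.

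None of the 3 Cxxc1 peaks overlapped an H3K4me3 peak. The study reports that few of its Cxxc1 sites coincided with H3K4me3, so this is not particular to these genes. The Zap70 peak ended 200 bp before the WT H3K4me3 peak and 1.6 kb before the Cxxc1-deficient one. The Lck peak was 4.8 kb from the WT peak at the distal promoter and 174 kb from the nearest Cxxc1-deficient peak. The Lcp2 peak was 3.8 kb from the Cxxc1-deficient promoter peak and 23.0 kb from the nearest WT peak. The highest window of each Cxxc1 peak held 0.5 RPM (5 tags). Those of Zap70 and Lcp2 are shown as the places where Cxxc1 was measured highest, with CpG in capitals. Lck had 2 windows at this value, which are not printed here.
Zap70 Cxxc1 window (chr1:36816401-36816600, + strand): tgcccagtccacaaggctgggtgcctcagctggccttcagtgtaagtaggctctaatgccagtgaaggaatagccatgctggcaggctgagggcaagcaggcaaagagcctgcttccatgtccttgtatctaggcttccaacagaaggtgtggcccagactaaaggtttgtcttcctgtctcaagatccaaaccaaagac
Lcp2 Cxxc1 window (chr11:33954401-33954600, + strand): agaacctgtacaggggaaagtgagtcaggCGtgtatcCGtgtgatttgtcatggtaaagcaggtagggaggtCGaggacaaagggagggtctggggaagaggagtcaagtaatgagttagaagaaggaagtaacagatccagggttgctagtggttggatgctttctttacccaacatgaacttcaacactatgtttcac
The Zap70 window held 0 CpG and the Lcp2 window 3. Over whole peaks, CpG dinucleotides per 100 bp came to 0.5 at Zap70, 1.85 at Lck and 1.0 at Lcp2, against a median of 1.08 over all Cxxc1 peaks and 2.5 over all WT H3K4me3 peaks.

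Reads were 50 bp long and only uniquely mapped ones were kept, so the copies of these windows in the genome were counted in 50-base stretches taken every 20 bases. All 8 stretches of the Zap70 and of the Lcp2 window were found once in mm9. Of the 2 Lck windows at 0.5 RPM, 1 had all 8 found once and the other 7 of 8, the remaining stretch having 2 copies. In stretches of 20 bases that other window was repetitive, with 5 of 10 found once and 1 at 45884 places. Whether repeats bear on the Lck value was not tested.

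Promoter CpG content, which the choice of genes did not use, was low in most of these genes. In the 1000 bases around the first TSS, CpG per 100 bp was 0.6 at Lcp2 and Themis, 1.4 at Fyn, 1.9 at Lck, 2.3 at Zap70, 2.8 at Vav1 and 3.0 at Lat, all below the median of 4.1 over all first promoters. Csk at 8.3 and Plcg1 at 11.3 lay above it. Genes with WT promoter H3K4me3 had a median of 6.8 and the rest 2.2.

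A promoter was called CpG-rich where any 500 bases within 1 kb of the first TSS were 55% or more GC with a ratio of observed to expected CpG from 0.65 upward. By this measure 3 of the 16 promoters were CpG-rich, the first ones of Fyn, Plcg1 and Csk, and all 3 had WT H3K4me3. The 1000 bases around the first Fyn TSS were CpG-poor, whereas its WT promoter peak, which started downstream of that TSS, held 8.1 CpG per 100 bp. Of the 6 genes whose first promoter was not CpG-rich, 4 (Zap70, Lck, Lat and Vav1) had WT promoter H3K4me3, against 8.99% of all genes in that class and 49.5% of CpG-rich genes. The share of WT-listed genes that were also listed in Cxxc1-deficient cells was 12.6% for CpG-rich and 14.1% for other genes.

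**Figure D5:**
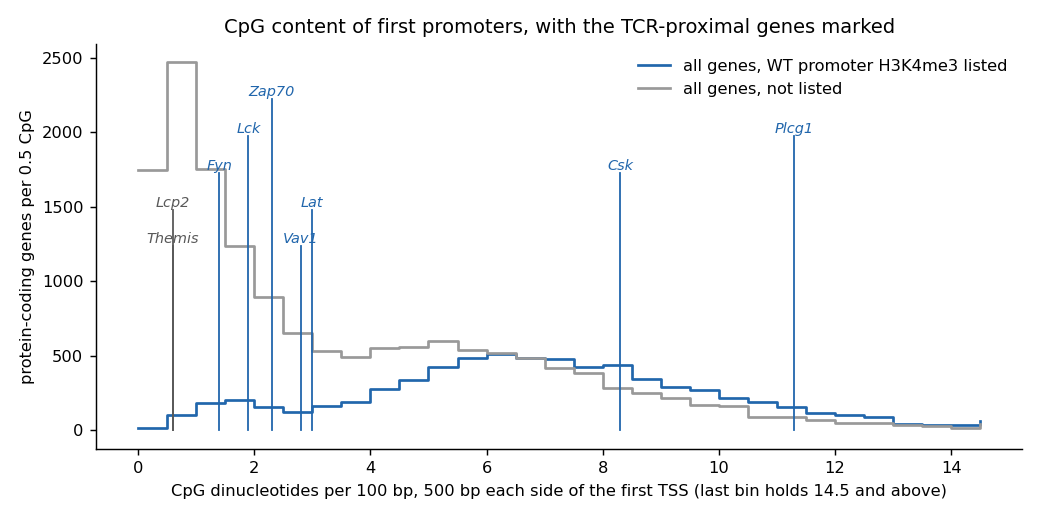
Number of protein-coding genes (y axis) by CpG dinucleotides per 100 bp in the 500 bases each side of the first TSS (x axis), for genes with and without WT promoter H3K4me3; vertical lines mark the 9 TCR-proximal genes, blue where WT H3K4me3 was listed. Of the 9 genes, 7 lie at 3.0 or below, under the median of 4.1 over all genes, and 5 of those 7 carried WT H3K4me3.

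The 250 bases before each first TSS were searched on both strands for 3 short cores that thymocyte factors recognise. TGTGGT and CAGGTG can share bases, and no promoter of these genes held both. The RUNX core TGTGGT was in the distal Lck and the Lat promoter, 2 of the 9 first promoters, and in 12.7% of all first promoters. The E-protein core CAGGTG was in 3 of the 9, Zap70, Plcg1 and Vav1, and in 16.9% of all. It was also in the proximal Lck promoter and the second promoters of Zap70, Plcg1 and Vav1, which made 7 of the 16 promoters. The share over all genes was taken from first promoters only, so it gives no measure for the 7 of 16. The ETS core CCGGAA was in Zap70 alone, and in 14.1% of all. A match is a match of letters only.

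Of 29 further genes of TCR signalling, 14 had WT promoter H3K4me3 (against 31.1% of all genes), with a median of 2.45 RPM over those 14, and 5 had Cxxc1-deficient promoter H3K4me3 (against 5.86% of all genes). Beside Zap70, promoters listed in both genotypes were those of Sh2d2a, an Lck-binding adaptor (2.5 RPM in WT against 2.0 RPM in deficient cells), Rasgrp1, the Ras activator downstream of Plcg1 (3.1 and 2.3 RPM), Bcl10, which links the TCR to NF-kB (3.2 and 1.6 RPM), and Dgkz, which removes diacylglycerol (5.1 and 1.4 RPM). In all 4 the WT value was the higher, as at Zap70, whereas at the DP marker Cd3e it was the lower (1.8 against 1.9 RPM). Summed over all 893 genes listed in both genotypes, WT was also the higher. WT windows summed to 1273.2 RPM upstream (3042 windows) and 1387.7 RPM downstream of TSSs (3313 windows). In Cxxc1-deficient cells the sums were 918.9 RPM (2339 windows) and 932.5 RPM (2399 windows). Since WT cells had more listed windows, these sums do not compare the same stretches.

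Cxxc1 was listed in the region of 8 of these 29 genes (against 11.1% of all genes, not matched for gene span), of which 3 had WT promoter H3K4me3. Those given here are the Tec kinases Txk (2.0 RPM) and Tec (1.8 RPM), the adaptor Grap2 (0.7 RPM), the phosphatase Ptprc (1.9 RPM), the Csk-binding adaptor Pag1 (3.9 RPM), and the kinases Dgka (1.5 RPM) and Dgkz (2.6 RPM). Only Dgka had its Cxxc1 window within 1 kb of a TSS.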

How the data were processed

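Cxxc1 and H3K4me3 ChIP-seq lists of DP thymocytes were used, 1 library each. Per the methods, chromatin was formaldehyde-fixed and sonicated, and 50-bp reads were processed with CASAVA 1.8.2 and mapped to mm9. Regions were called from uniquely mapped reads with SICER 1.1. For the Cxxc1 list the input and the Cxxc1 ChIP of deficient cells served as controls. The aligner, treatment of duplicates and control used for H3K4me3 are not given in the sources used here, and each can change which windows are listed. The authors deposited RPM values at 1 decimal for 200-bp windows of called regions only.

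Windows within 1 kb of TSSs of protein-coding transcripts (GENCODE, NCBIM37), or in gene bodies plus 10 kb upstream, were summed. Windows with at most 2 missing between them were joined into peaks. Tags were recovered from the decimals that occur, and intervals are exact Poisson (95%). Python 3.11.15, pandas 2.3.3, scipy 1.17.1 and pysam 0.24.0 were used, and the joining and counting steps were tested on simulated data. Named genes were the 9 members, wider-list genes with a Cxxc1-deficient promoter window or Cxxc1 in the region, coding genes with a TSS within 1 kb of a member TSS (none was found), and the 3 genes closest to Zap70 and to Lck. Members and lists were chosen with earlier results of these data known. Alternatives varied promoter width, transcripts, overlap, peak strength, upstream reach, joining and chromosomes. A few items of the wider list and 1 Cxxc1 window sequence are not reported here.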

Additional observations from a re-analysis of the deposited data

How the results depend on the processing

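With promoters of 500 bp, or with only peaks at or above the median of their list, 1 of the 9 genes and 1 promoter had Cxxc1-deficient H3K4me3 instead of 2, Lcp2 being the one lost. With 2 kb, 1 member promoter had a Cxxc1 window instead of 0, and with peaks within 1 kb counted as shared, 1 Cxxc1 peak (Zap70) was shared instead of 0. Joining only adjacent windows gave 9 Cxxc1, 53 WT and 8 Cxxc1-deficient peaks instead of 3, 22 and 5, since every missing window then splits a peak. The share of all genes with a promoter window was 1.51% and 2.64% for Cxxc1, 30.2% and 32.5% for WT and 5.47% and 6.29% for Cxxc1-deficient H3K4me3 at 500 bp and 2 kb, and 32.5% for WT on autosomes. Counting every annotated transcript gave Lcp2 promoter values of 2.2 RPM for WT and 2.5 RPM for deficient cells, through the noncoding start inside the gene. Of 90 single-gene RPM values recomputed, many stayed unlisted, among them all Cxxc1-deficient values except those of Zap70 and Lcp2. In 12 cases the value left the counting interval of the reported one. Among these, WT Zap70 went from 4.8 to 2.5 RPM at 500 bp and 6.9 RPM at 2 kb, Lck from 4.5 to 2.6 RPM with the stronger peaks only, and Csk from 1.3 to 2.5 RPM at 2 kb, which changes the order of the genes. No paired analysis was possible because there was 1 library for each condition. Peaks of 15 to 41 tags limit what single loci can show.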
